A study of Mus musculus with 8 samples.

Results

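The 2 libraries of a Cxcl12 genotype comparison were set against the 6 libraries of a GABA and taurine treatment, all 8 from mesenchymal cells of the mouse large intestine. All 8 carry 1 stated sorting gate: negative for CD45, EpCAM, CD31 and Ly6C, positive for gp38 and high for PDGFRA. The 8 are all the libraries of the series. Of 24346 gene symbols listed, 23148 were autosomal, and 7401 of these had a mean of at least 10 FPKM (fragments per kilobase of transcript, scaled to the library's mapped fragments) in either set and were compared. A gene was called different when both genotype libraries lay above, or both below, all 6 TauGABA libraries.

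The genotype set held 1 library of Cxcl12 flox/flox mice (Cxcl12_ff, the control) and 1 library of Cxcl12 flox/flox mice that also carried Foxl1-cre, both untreated. Both carry the floxed Cxcl12 alleles, and the Cre is driven by Foxl1, which marks the subepithelial cells studied. Their strain is not in the labels used here. The TauGABA set came from C57BL/6 mice with no stated allele, and held 3 libraries each for 0 h and 6 h with taurine (20 mM) and GABA (1 mM), an inhibitory transmitter. No untreated library at 6 h was analysed, and the labels do not say whether the cells were kept in culture. They do not say whether replicates came from separate animals either. Genotype, treatment and any difference in handling therefore go with the set and cannot be told apart, and the values below are a description with no test. Values of the genotype libraries are given in the order Cxcl12_ff, then Foxl1-cre_Cxcl12_ff.

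PDGFRA-high fibroblasts lie directly under the gut epithelium and are marked by the transcription factor Foxl1. They secrete BMP ligands, which favour epithelial differentiation, and non-canonical Wnt ligands. PDGFRA-low fibroblasts, some of them CD81-positive, lie deeper and around the crypt base, and make BMP antagonists. Both kinds lay down collagens and proteoglycans. CXCL12 is a chemokine that fibroblasts supply to cells carrying CXCR4.

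Reference genes were examined first, because the 2 sets may have been normalised separately. Of 16 genes chosen as stably expressed, 13 were lower in both genotype libraries than in all 6 TauGABA libraries, 1 was higher and 2 overlapped. Vcp, an ATPase of protein quality control, was at 159 and 185 FPKM in the 2 genotype libraries, 337, 322 and 325 FPKM at 0 h and 324, 327 and 313 FPKM at 6 h. Every TauGABA value of Vcp was above both genotype values. Polr2a, the large subunit of RNA polymerase II, was at 10.1 and 10.7 FPKM in the genotype libraries and 8.56 to 11.3 FPKM in the TauGABA libraries, so its ranges overlapped. Reep5, a protein that shapes the endoplasmic reticulum, went the other way, at 62.4 and 68.2 against 29.4 to 34.7 FPKM. The median difference of the 16 genes, as log2(FPKM + 1) of the genotype mean minus that of the TauGABA mean, was −0.69, and that of all 7401 genes was −0.38.

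**Figure D1:**
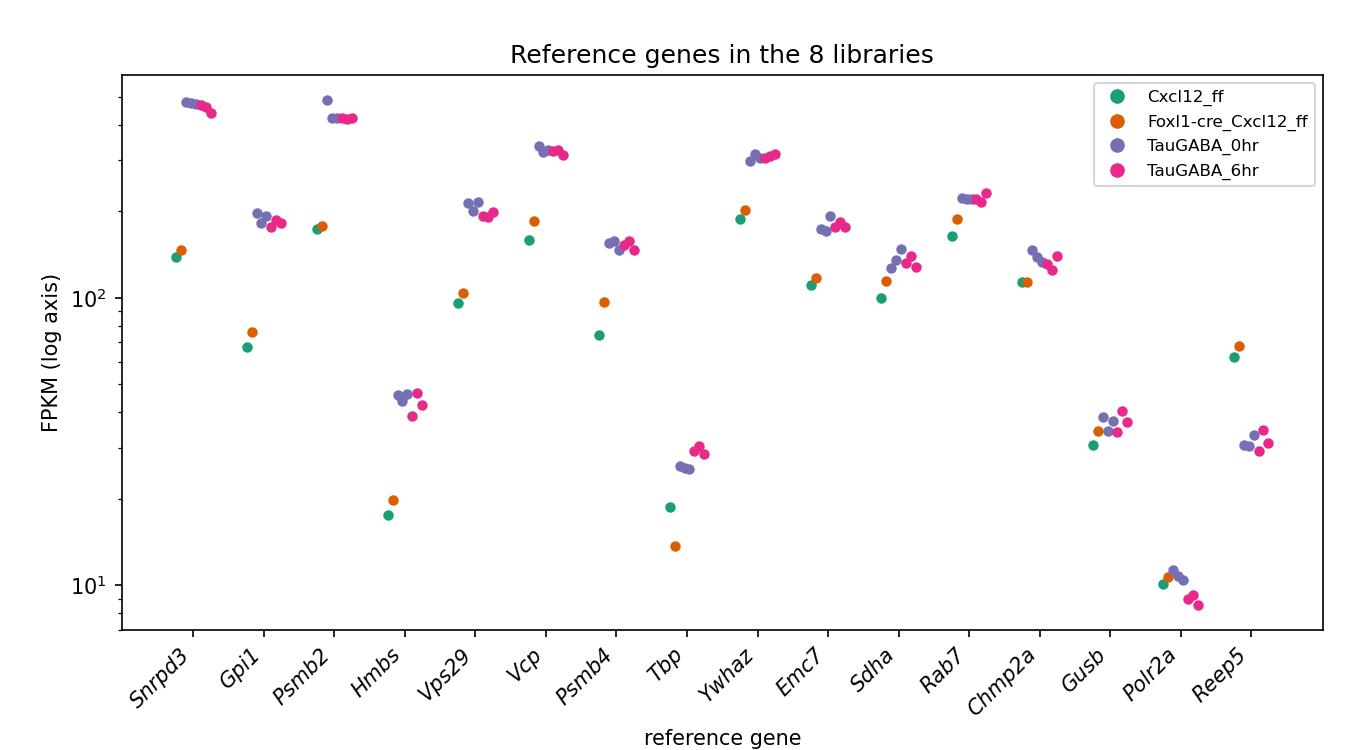
FPKM of 16 reference genes (log axis) in each of the 8 libraries, 1 point per library, coloured by group and ordered by the difference between sets. 13 genes are lower in both genotype libraries than in all TauGABA libraries, while Reep5 is higher and Gusb and Polr2a overlap.

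As deposited, 2372 genes (32.0%) were higher in the genotype libraries and 3997 (54.0%) were lower, and 1032 overlapped. With a difference of at least 1 on the log2 scale as well, 1409 genes (19.0%) were higher and 2064 (27.9%) lower. The balance between directions depended on scaling and on the genes that then passed the filter. The share of separated genes that were higher was 37.2% as deposited, 46.3% after scaling each library to an equal total, 44.2% by rank within the library, 57.0% after median-ratio scaling and 65.0% after scaling on the reference genes. The median of all genes was −0.38, −0.12, 0.20 and 0.40 as deposited and after equal-total, median-ratio and reference-gene scaling. A direction is therefore given below with the number of genes that kept it as deposited and in all 4 rescalings, called held: 2357 genes (31.8%) held as higher and 2410 (32.6%) as lower. Each list below is read against these shares. Equal-total, median-ratio and reference-gene scaling all moved genes towards higher in the genotype libraries. A higher gene could therefore hardly fail to hold, and 2357 of 2372 did, compared with 2410 of 3997 lower genes. That all higher members of a list held is thus little evidence that their direction is robust to scaling, while held as lower is the stricter call. Overlap depended on scaling as well: of the 1032 genes that overlapped as deposited, 269 still did after median-ratio scaling and 137 after reference-gene scaling, and the rest were then higher in the genotype libraries. Only 125 overlapped as deposited and in all 4 rescalings. Overlap below is as deposited, and except for Dbp each gene named as overlapping was higher in both genotype libraries after median-ratio and after reference-gene scaling. A gene that passed the filter only through the set in which it is high tends to be separated, and 1264 genes passed in the genotype set only and 1166 in the TauGABA set only.

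The 2 sets were far apart relative to differences within them. Spearman correlation over the 7401 genes, which share libraries and are no replicates, was 0.488 to 0.507 between a genotype and a TauGABA library, 0.943 between the 2 genotype libraries and 0.985 to 0.992 among the TauGABA libraries. Of the 6369 separated genes, 3473 differed by at least 2-fold between sets. Of the same 6369 genes, 44 differed by that much between the 2 genotype libraries and 4 between the 6 h and 0 h means. These genes were picked for lying apart between sets, so such counts do not measure the gap against differences within sets. Over all 7401 genes the median absolute log2 difference was 0.91 to 0.97 between sets. It was 0.15 between the 2 genotype libraries and 0.10 to 0.14 among the TauGABA libraries. The genotype libraries also listed more genes at low levels: 21006 and 20874 genes were above 0, compared with 14818 to 14974 in the TauGABA libraries. Total FPKM was 513001 and 528318 in the genotype libraries and 550914 to 579004 in the TauGABA libraries. The number of reads behind the values is not given.

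**Figure D2:**
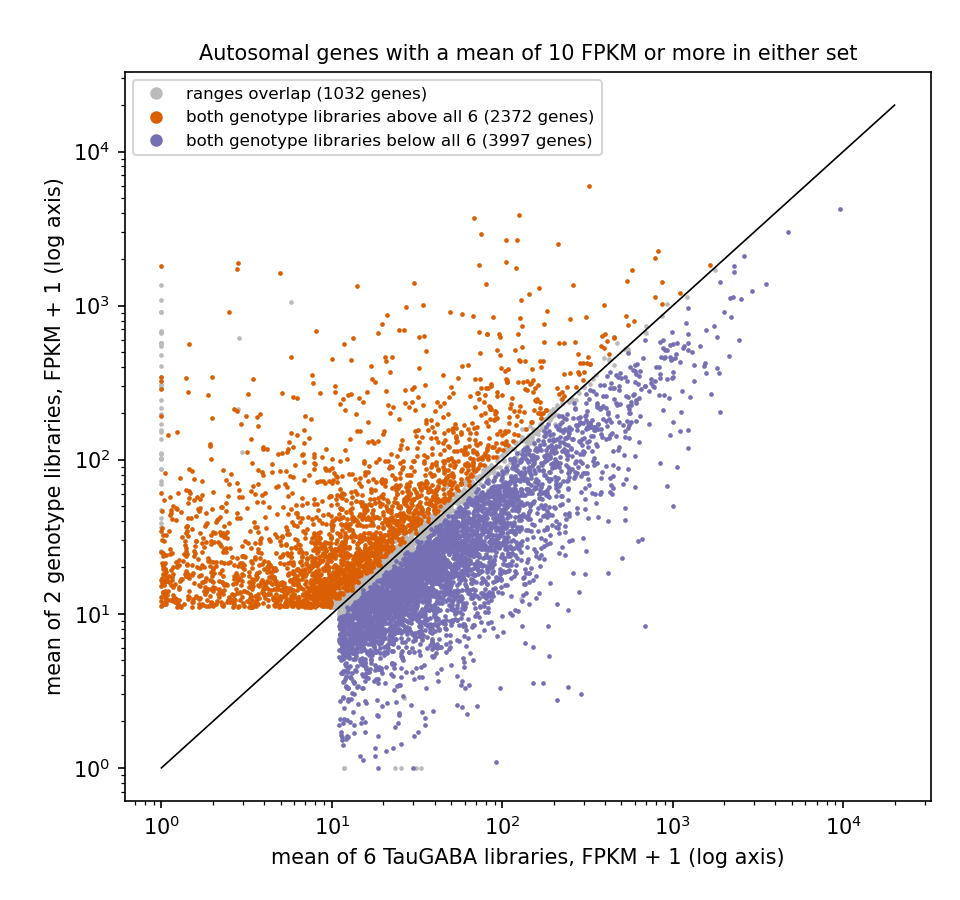
Mean FPKM + 1 of the 2 genotype libraries (y axis) against that of the 6 TauGABA libraries (x axis), both log axes, for 7401 autosomal genes. The line marks equal values. 2372 genes are coloured as higher and 3997 as lower in the genotype libraries, and the higher genes reach to the left edge, where the TauGABA mean is near 0.

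As deposited, the gate genes put the sets close together for PDGFRA and apart for gp38 and Ly6C. Pdgfra, the receptor of the gate, was at 202 and 226 FPKM in the 2 genotype libraries, 152, 183 and 195 FPKM at 0 h and 227, 219 and 208 FPKM at 6 h, and its ranges overlapped. After median-ratio scaling Pdgfra was at 266 and 281 against 139 to 209, and after reference-gene scaling at 293 and 307 against 135 to 205, so the overlap was lost. Pdpn, which encodes gp38, was lower in the genotype libraries, at 96.1 and 91.7 against 281 to 304 FPKM. Ly6c1, which encodes the Ly6C antigen gated out, was higher there, at 141 and 89.6 against 8.76 to 12.4 FPKM (log2 difference 3.29). The other gated antigens were below the filter: Ptprc (CD45) was at 4.82 and 6.85 against 0 to 0.216 FPKM, Epcam at 4.18 and 14.6 against 0 to 0.48 FPKM and Pecam1 (CD31) at 4.86 and 2.75 against 0 to 0.165 FPKM. All 3 were higher in both genotype libraries than in every TauGABA library.

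Fibroblast markers were abundant in all 8 libraries. The 9 genes summed to 11562 and 12758 FPKM in the genotype libraries and 2313 to 2485 FPKM in the TauGABA libraries. Of the 8 that passed the filter 5 were higher, led by collagens and decorin, and 2 were lower, Pdpn and the intermediate filament gene Vim, at 532 and 605 against 1165 to 1344 FPKM.

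Markers of other cell types were mostly higher in the genotype libraries. The summed level of 20 leukocyte markers was 763 and 884 FPKM in the genotype libraries and 7.73 to 30.2 FPKM in the TauGABA libraries. All 12 leukocyte markers that passed the filter were higher in the genotype libraries. They passed only through that set, where they are high, so their direction was nearly fixed by the filter. The sums cover all 20 markers with no filter. Cd74, the invariant chain of MHC class II, was at 308 and 362 against 0.887 to 3.96 FPKM, Lyz2, the macrophage lysozyme, at 105 and 128 against 0.0565 to 7.15 FPKM, and Jchain, made by plasma cells, at 65.4 and 49.9 against 0.176 to 10.5 FPKM. The 19 epithelial markers summed to 132 FPKM in the Cxcl12_ff library and 1101 FPKM in the Foxl1-cre library, against 5.73 to 12.5 FPKM. Car1, a colonocyte carbonic anhydrase, made up much of the gap between the genotype libraries, at 57.2 and 614 against 0 to 1.19 FPKM. Phgr1, another colonocyte gene, was at 0.604 and 46.8 against 0 to 0.444 FPKM, so its separation rested on a small margin in the Cxcl12_ff library. All 8 epithelial markers that passed the filter were higher in both genotype libraries. These too passed only through the set in which they are high, so the count was nearly fixed by the filter. The sums cover all 19 markers with no filter.

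Endothelial markers (16 genes) summed to 195 to 228 FPKM against 86.9 to 99.2 FPKM. Pericyte markers (9 genes) summed to 146 to 151 FPKM against 48.4 to 58.4 FPKM, with the channel subunits Kcnj8 at 31.5 and 33.6 against 0.076 to 0.939 FPKM and Abcc9 at 16.1 and 16.9 against 0.0313 to 0.269 FPKM. Of 3 genes of interstitial cells of Cajal, Etv1 passed the filter, at 21.1 and 21.8 against 0.155 to 0.476 FPKM. No gene of enteric glia and neurons (10 listed) or mesothelium (5 listed) passed. The adipocyte list had 1 gene past the filter, Pparg, a nuclear receptor, at 24.3 and 32.9 against 17.7 to 27 FPKM with overlapping ranges. In these bulk samples, fewer cells of a type and less RNA per cell cannot be told apart, and the part of these other cell types in the differences between sets was not tested. With the epithelial, leukocyte and endothelial markers left out, 2348 genes were higher and 3997 lower. Only the listed markers were removed, and not other transcripts of those cells, so these counts do not measure their part.

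**Figure D3:**
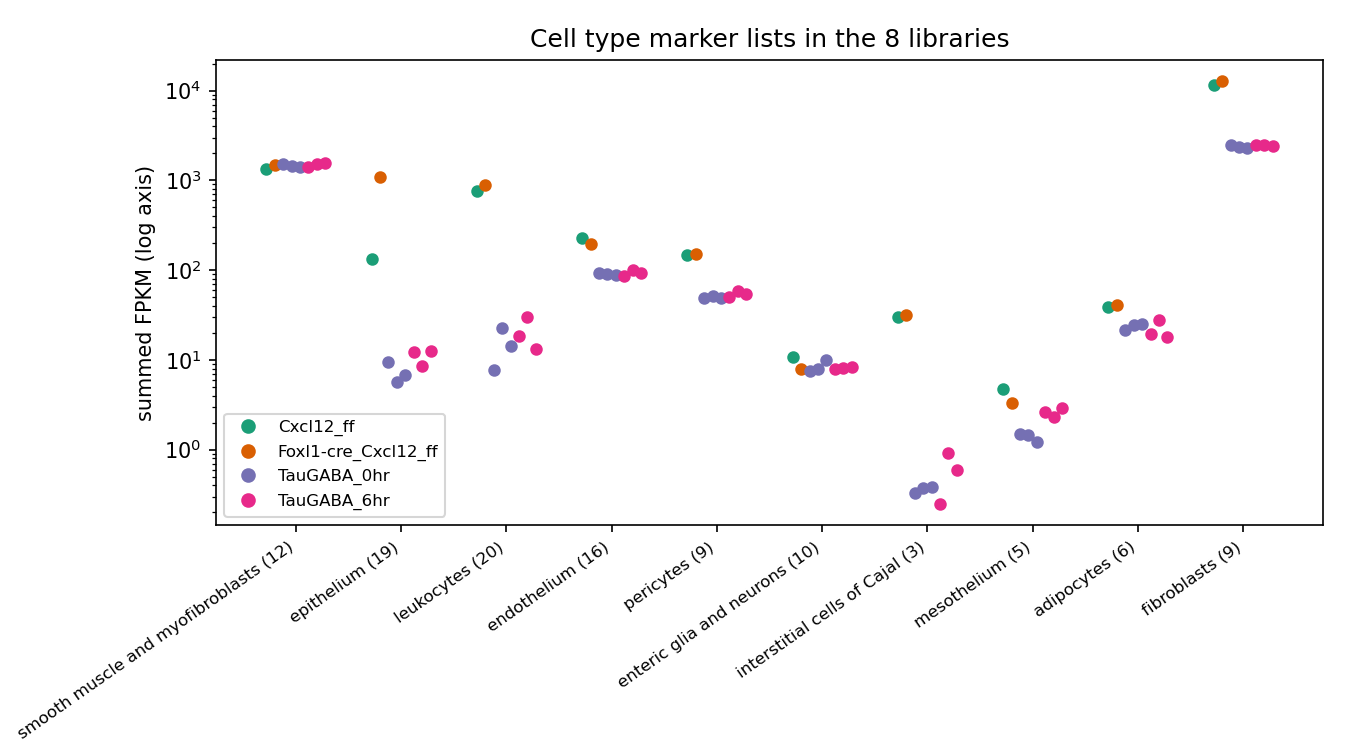
Summed FPKM (log axis) of 10 marker lists in each of the 8 libraries, 1 point per library, coloured by group. Leukocyte markers lie at 763 and 884 FPKM in the genotype libraries and at 7.73 to 30.2 FPKM in the TauGABA libraries, and epithelial markers are highest in the Foxl1-cre library.

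Transcripts of the sex chromosomes also differed between sets. The Y-linked gene Ddx3y was at 27.4 and 34.2 FPKM and Eif2s3y at 24.4 and 21.3 FPKM in the genotype libraries, while Eif2s3y, Kdm5d and Uty were listed at 0 in all 6 TauGABA libraries and Ddx3y in 5 of the 6. Xist, expressed from the inactive X chromosome, was at 0.181 and 0.188 against 2.74 to 3.65 FPKM. The sets thus differ in sex-linked transcripts as well as in genotype, treatment and any handling, and these cannot be told apart.

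Genes of the Foxl1-positive subepithelial cell were mostly higher in the genotype libraries. Of 17 genes, 15 passed the filter: 13 were higher, all of them held, none was lower and 2 overlapped. The median difference of the 15 was 3.31. Foxl1, Sox6, Tgfbi, Bmp3, Bmp5 and Bmp7 passed only through the genotype set, where they are high. Their direction was thus nearly fixed by the filter. With no filter 15 of the 17 were higher and none lower, with a median of 2.19, but low genes lay mostly on that side. Foxl1 (GRCm38 chromosome 8, 121127940 to 121130644) was at 10.2 and 11.6 FPKM in the 2 genotype libraries, 0.193, 0.289 and 0.109 FPKM at 0 h and 0.182, 0.225 and 0.191 FPKM at 6 h. Both genotype values lay far above the TauGABA values, none of which reached 1 FPKM. Pdgfra overlapped, as given above, and so did F3, the tissue factor gene, at 369 and 451 against 393 to 523 FPKM. After reference-gene scaling F3 was at 535 and 615 against 347 to 466, higher in the genotype libraries (log2 difference 0.52), as was Pdgfra (0.77). Sox6, a transcription factor, was at 12.3 and 12.1 against 0.00578 to 0.197 FPKM, and the forkhead factors Foxf1 and Foxf2 were at 151 and 143 against 58.9 to 77.1 FPKM and 56.9 and 54.6 against 15.9 to 21.6 FPKM. Tgfbi, a secreted matrix protein, was at 191 and 193 against 4.45 to 9.12 FPKM.

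BMP ligands showed some of the largest gaps. Bmp4 was at 424 and 443 FPKM in the 2 genotype libraries, 20.0, 18.2 and 21 FPKM at 0 h and 16.3, 20.0 and 22.8 FPKM at 6 h. Bmp5 was at 189 and 196 FPKM in the 2 genotype libraries, 1.35, 2.76 and 1.95 FPKM at 0 h and 2.23, 1.74 and 2.7 FPKM at 6 h. Bmp7 was at 85.1 and 87 FPKM in the 2 genotype libraries, 0.293, 0.276 and 0.363 FPKM at 0 h and 0.353, 0.598 and 0.846 FPKM at 6 h. For all 3 ligands every genotype value was at least an order of magnitude above every TauGABA value, and 0 h and 6 h lay close together. Bmp3 was at 46.8 and 46.2 against 0 to 0.403 FPKM and Bmp2 at 64.1 and 68.6 against 12 to 16.3 FPKM. The difference was smaller for Bmp6, at 63.4 and 62.9 against 32.6 to 39.5 FPKM, and for Bmp1, a procollagen protease in spite of its name, at 94.7 and 99.2 against 39.5 to 50.2 FPKM.

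Antagonists and targets of the pathway did not move as a block. Of 26 BMP and TGF-beta genes 22 passed the filter, with 16 higher and 4 lower, all held. Bmp3, Bmp4, Bmp5 and Bmp7 are also in the list of the Foxl1-positive cell, so the 2 lists are not independent. The antagonists Chrd and Grem1 were higher in the genotype libraries, at 32.4 and 36.7 against 0.283 to 0.689 FPKM and 46 and 49.4 against 6.89 to 16.1 FPKM. Fst, which binds activins, was lower, at 1.86 and 3.44 against 52.2 to 66 FPKM, as was Inhba, the activin A subunit. Inhba was at 14.9 and 19.8 FPKM in the 2 genotype libraries, 408, 406 and 394 FPKM at 0 h and 445, 426 and 416 FPKM at 6 h, a log2 difference of -4.50. The inhibitory Smads, Smad6 and Smad7, were lower, at 5.53 and 3.78 against 15.8 to 19.3 FPKM and 4.03 and 5.34 against 24.9 to 34.8 FPKM. Id1, a direct BMP target, overlapped at 122 and 109.6 against 109.5 to 121 FPKM, while Id2 was higher at 155 and 162 against 44 to 56.3 FPKM. Among receptors Tgfbr2 was higher, at 163 and 181 against 32 to 36.9 FPKM, and among TGF-beta ligands Tgfb3, at 43.4 and 44.2 against 13.4 to 15.1 FPKM.

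Markers of CD81-positive PDGFRA-low fibroblasts were mostly higher in the genotype libraries as well. Of 14 genes 13 passed the filter, with 11 higher and 1 lower, all held, and a median of 2.99. Ackr4, a scavenging chemokine receptor, was at 165 and 207 FPKM in the 2 genotype libraries, 0.633, 0.557 and 0.238 FPKM at 0 h and 1.43, 0.951 and 2.03 FPKM at 6 h. Dpt, a dermatopontin matrix protein, was at 931 and 1011 against 21.2 to 35.2 FPKM, Cd34 at 335 and 373 against 36.2 to 51 FPKM and Cd248 at 159 and 148 against 11.8 to 15.6 FPKM. Cd81 itself overlapped, at 232 and 259 against 213 to 242 FPKM. The member that was lower was Rspo3, an R-spondin that amplifies Wnt signalling, at 4.81 and 4.34 against 15 to 22.2 FPKM.

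Of 18 Wnt ligands, R-spondins and antagonists, 11 passed the filter, and 9 were higher and 2 lower in the genotype libraries, all held. Sfrp1 and Rspo3 are also in the list of CD81-positive fibroblasts, so these 2 lists are not independent either. The non-canonical ligands Wnt5a and Wnt5b were higher, at 45.9 and 50.8 against 12.5 to 16.9 FPKM and 30.5 and 31.9 against 5.19 to 8.18 FPKM, and Wnt4 was at 18.1 and 11.9 against 0.0648 to 0.169 FPKM. Wnt2, a canonical ligand, was lower, at 6.25 and 9.64 against 41.2 to 46.9 FPKM. Secreted antagonists were higher: Dkk3 was at 259 and 261 against 7.99 to 13.4 FPKM, Sfrp1 at 140.4 and 135 against 5.34 to 7.99 FPKM and Wif1 at 26.3 and 20.8 against 0 to 0.474 FPKM. The 2 lower members, Wnt2 and Rspo3, are both activators of canonical Wnt signalling, but Wnt2b, also a canonical ligand, was higher at 16.9 and 12.5 against 3.03 to 4.96 FPKM.

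Hedgehog genes had 5 of 11 members past the filter, of which 4 were higher, all held, and none lower. Ptch1, receptor and target of the pathway, was at 19.4 and 21.9 against 1.17 to 1.97 FPKM, and Gas1, a co-receptor, at 55 and 65.4 against 3.35 to 6.14 FPKM. The target Gli1 was below the filter, at 7.52 and 5.36 against 0.963 to 1.98 FPKM. Smo, the transducer, differed little, at 36.9 and 40.8 against 26.4 to 33.1 FPKM. Positional factors were mostly low: of 25 genes 3 passed. Nkx2-3, a homeobox gene of gut mesenchyme, was higher, at 70.7 and 78.3 against 14.6 to 18.9 FPKM. Hoxa10 overlapped, at 12.5 and 14 against 10.8 to 15.3 FPKM. Hoxa11 was lower as deposited, at 10.6 and 10.2 against 11.4 to 15.1 FPKM, and turned to higher after median-ratio and reference-gene scaling. Hoxa13 and Hoxd13, the most distal of their clusters, were below the filter and went in opposite directions, at 5.95 and 4.46 against 0.466 to 0.95 FPKM and 2.27 and 1.67 against 5.68 to 9.18 FPKM.

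Cxcl12, the gene floxed in the genotype set, was at 1298 and 739.7 FPKM in the 2 genotype libraries, 860.4, 875 and 916 FPKM at 0 h and 951, 945 and 969 FPKM at 6 h. As deposited, the TauGABA range lay between the Foxl1-cre library and the control, so the ranges overlapped. This position depended on scaling: Cxcl12 was at 1714 and 920.3 against 783 to 894 after median-ratio scaling and at 1884 and 1008 against 760.5 to 863 after reference-gene scaling, with both genotype libraries above every TauGABA library. The exon that recombination removes is not given, so a gene-level value is a limited check of the deletion. Cxcr4, its receptor, was below the filter, at 2.6 and 1.68 against 0 to 0.257 FPKM, and the scavenging receptor Ackr3 was higher in the genotype libraries, at 137 and 143 against 31.4 to 34.2 FPKM.

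Collagens were nearly all higher in the genotype libraries. Of 17 collagen genes 15 passed the filter, with 14 higher, all held, and 1 lower (Col8a1, a short-chain collagen, at 58.4 and 77.5 against 98.8 to 117 FPKM, not held). The median difference was 2.97. Col1a1, a chain of type I collagen, was at 1229.6 and 1387 FPKM in the 2 genotype libraries, 173, 164 and 144 FPKM at 0 h and 159, 168 and 177 FPKM at 6 h. Col3a1, the type III chain, was at 3613 and 4176 FPKM in the 2 genotype libraries, 118, 112 and 114 FPKM at 0 h and 132, 139 and 129 FPKM at 6 h. The 2 chains Col6a1 and Col6a2 of the beaded-filament type VI collagen stood further apart, at 1313 and 1470.4 against 25.3 to 31.6 FPKM and 803 and 923 against 18.4 to 22.1 FPKM. Col6a3, the chain they assemble with, differed less, at 131 and 178 against 31.2 to 39.8 FPKM, so the 3 chains did not keep a fixed ratio between sets. Col5a2 differed least among the higher collagens, at 167 and 177 against 106 to 117 FPKM.

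Basement membrane genes had 10 of 12 members past the filter, and 9 were higher, all held, with none lower. Lama2, a laminin chain, was at 63.4 and 68.2 against 3.38 to 4.02 FPKM, Col4a1, a type IV collagen chain, at 368 and 414 against 89.7 to 109.6 FPKM, and Hspg2, which encodes perlecan, at 50.1 and 57.5 against 9.2 to 13.2 FPKM. Nid1, the nidogen that links laminin to collagen, overlapped, at 177 and 199.8 against 173 to 216 FPKM. All 7 small leucine-rich proteoglycans past the filter, of 9, were higher and held, with a median of 4.22. Ogn, Prelp, Aspn and Podn passed only through the genotype set, where they are high, so their direction was nearly fixed by the filter. With no filter the 9 genes summed to 8859 and 9495 against 423 to 521 FPKM. Dcn (decorin), a collagen-binding proteoglycan, was at 5741 and 6218 FPKM in the 2 genotype libraries, 291, 309 and 288 FPKM at 0 h and 333, 345 and 364 FPKM at 6 h. Ogn (osteoglycin) was at 709 and 654 against 6.34 to 8.31 FPKM, Prelp at 363 and 344 against 6.42 to 7.32 FPKM and Aspn (asporin) at 299 and 328 against 5.07 to 8.49 FPKM.

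Elastic fibre and crosslinking genes split. Of 20 genes, all past the filter, 15 were higher and held and 4 were lower, 3 of them held. Eln (elastin) was at 245 and 298 against 2.74 to 6.06 FPKM, Fbln1 (fibulin 1) at 734 and 775 against 15 to 22.3 FPKM, Mfap4 at 662 and 659.5 against 13.3 to 21.7 FPKM and Efemp1 at 577 and 548 against 8.14 to 12.2 FPKM. In the other direction, Lox, the crosslinking lysyl oxidase, was at 27.2 and 35.5 against 158 to 204 FPKM, Ltbp2, which binds fibrillin, at 2.32 and 2.57 against 56.3 to 68.6 FPKM, and Fbln2 at 301 and 379.7 against 798 to 898 FPKM. The lysyl oxidase relatives Loxl1, Loxl2 and Loxl3 were higher in the genotype libraries, opposite to Lox.

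Matricellular and provisional matrix proteins also split, with 8 of 13 higher and 5 lower (8 and 4 held). Sparcl1 was at 272 and 271 against 5.12 to 9.64 FPKM, Tnxb (tenascin X) at 90.3 and 98.5 against 2.03 to 3.11 FPKM and Thbs2 (thrombospondin 2) at 188 and 229 against 7.32 to 16 FPKM. Their relatives Tnc (tenascin C) and Thbs1 (thrombospondin 1) were lower, at 147 and 190.1 against 629 to 809 FPKM and 282 and 433 against 735 to 896 FPKM, as was the hyaluronan receptor Cd44, at 60.5 and 63.8 against 159.9 to 172 FPKM. Among matrix proteases and inhibitors, 18 of 22 passed, with 12 higher and 6 lower, all held. Mmp3 (stromelysin 1) was at 24 and 33.8 FPKM in the 2 genotype libraries, 546, 526 and 573 FPKM at 0 h and 691, 709 and 707 FPKM at 6 h. All TauGABA values lay far above both genotype values. Mmp10, Mmp13 and Mmp9 were lower too, at 26.3 and 51.5 against 181 to 240.3 FPKM, 0.965 and 0.963 against 18 to 30.5 FPKM and 1.34 and 1.55 against 6.67 to 14.7 FPKM. Mmp2 (gelatinase A) was higher, at 857 and 839 against 80.9 to 93.3 FPKM, as were the aggrecanase Adamts4, at 61.7 and 89.6 against 3.35 to 6.81 FPKM, and the inhibitor Timp3, at 198 and 189 against 60.05 to 91 FPKM.

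**Figure D4:**
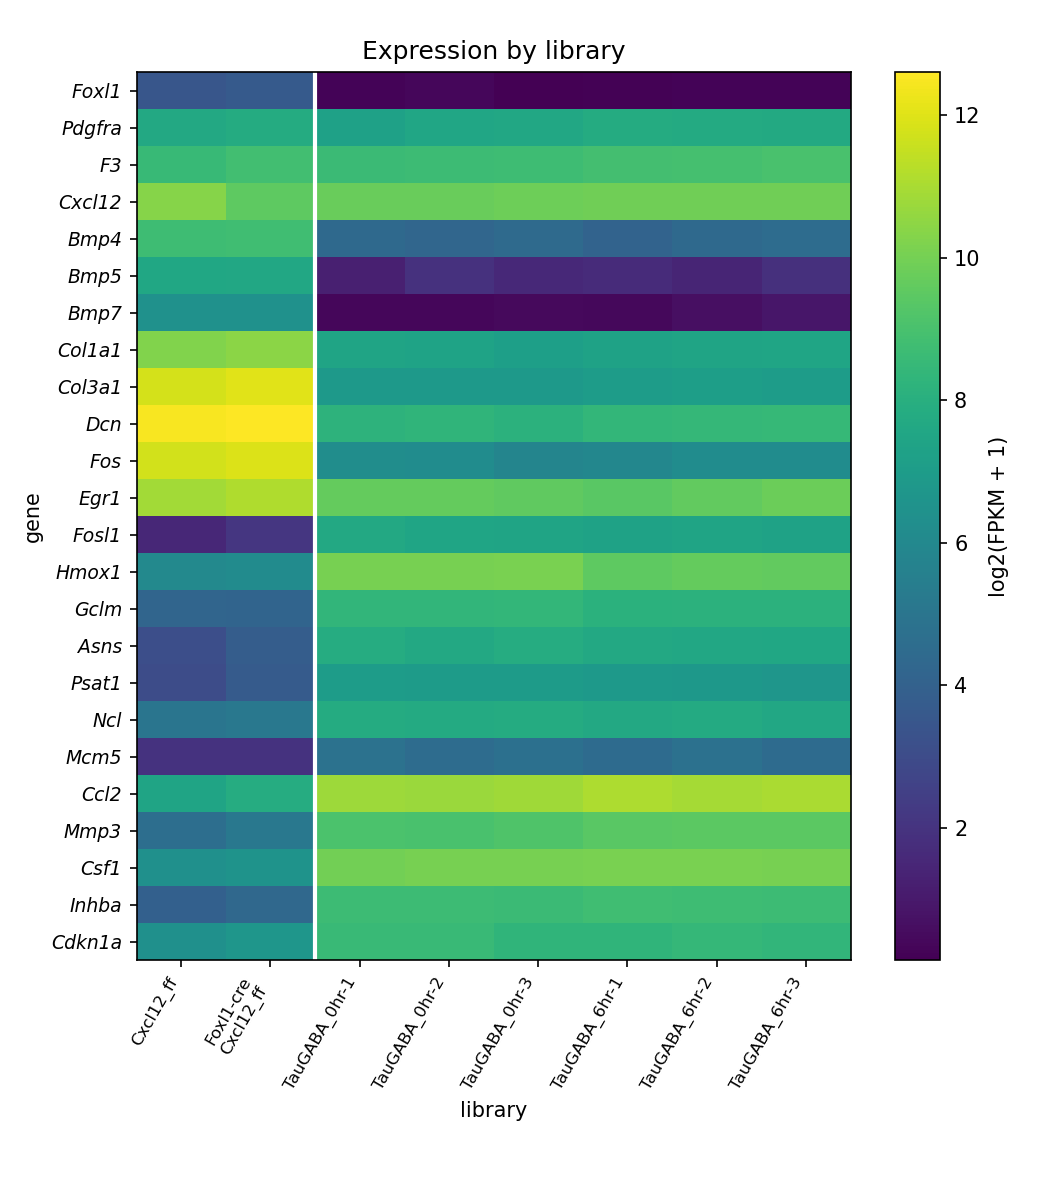
Heat map of log2(FPKM + 1) for 24 genes (rows) in the 8 libraries (columns), with a white line between the 2 genotype and the 6 TauGABA libraries. The row of Pdgfra, as deposited, changes little across the line, Foxl1, the BMP ligands, collagens and Fos are lower on its right, and the rows from Fosl1 to Cdkn1a are higher there.

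Immediate early genes, transcription factors and regulators induced soon after stimulation, were mostly higher in the genotype libraries. Of 28 genes 27 passed the filter, with 20 higher and 5 lower (20 and 2 held) and a median of 1.78. Fos was at 3478 and 3923 FPKM in the 2 genotype libraries, 74.1, 73.5 and 54.5 FPKM at 0 h and 58.8, 71.6 and 71.8 FPKM at 6 h. Both genotype values lay far above every TauGABA value, none of which reached 100 FPKM. Fosb was at 102 and 131 against 2.35 to 3.74 FPKM, the phosphatase Dusp1 at 1773 and 2049 against 95 to 120.4 FPKM, Nr4a1, an orphan nuclear receptor, at 814 and 956 against 46.9 to 69.5 FPKM, and Socs3, a cytokine signalling inhibitor, at 212 and 223 against 19.6 to 24.2 FPKM. Fosl1, the AP-1 member FRA1, went the other way, at 1.86 and 3.29 FPKM in the 2 genotype libraries, 200.5, 179 and 169.6 FPKM at 0 h and 160.0, 168 and 162 FPKM at 6 h. Myc was lower as well, at 39.8 and 48.7 against 252 to 286 FPKM. Egr2 and Fosl2 overlapped, at 68.1 and 81.4 against 70.4 to 77.6 FPKM and 9.53 and 10.9 against 9.83 to 12.1 FPKM.

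Glucocorticoid and FoxO target genes had 11 of 15 autosomal members past the filter, with 8 higher and 2 lower, all held. Txnip, which binds thioredoxin, was at 307 and 232 against 67.7 to 74.8 FPKM, Cebpd, a transcription factor, at 207 and 206 against 31.2 to 44.8 FPKM and Ccng2 at 37.7 and 45.1 against 4.61 to 9.75 FPKM. Errfi1, a feedback inhibitor of the EGF receptor, was lower, at 87.7 and 121 against 578 to 636 FPKM, as was Fkbp5, a glucocorticoid-induced cochaperone, at 5.29 and 7.53 against 16.3 to 19.4 FPKM. Clock genes, which cycle over the day, had 11 of 16 members past the filter, 3 higher and 6 lower (3 and 3 held). Ciart, a repressor in the clock, was at 5.37 and 3.21 FPKM in the 2 genotype libraries, 188, 202 and 166 FPKM at 0 h and 180.0, 189 and 189 FPKM at 6 h. Cry1 and Nr1d1 were also lower, at 6.01 and 9.53 against 41.2 to 46.7 FPKM and 126 and 89.3 against 269 to 304 FPKM, and Bhlhe40 was higher, at 201 and 192 against 85.8 to 93.3 FPKM. Dbp was at 38.8 and 14.1 against 31 to 39.8 FPKM, where the 2 genotype libraries differed from each other.

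Chemokines were split between sets. Of 20 genes 14 passed the filter, 6 higher and 7 lower (6 and 6 held). Ccl2, which recruits monocytes, was at 173 and 232 FPKM in the 2 genotype libraries, 1771, 1676 and 1809 FPKM at 0 h and 2145, 1937 and 2069 FPKM at 6 h. Ccl7, its neighbour in the same cluster, was at 223 and 305 against 1493 to 1862 FPKM. Cxcl5, a neutrophil attractant, was at 2.2 and 1.86 FPKM in the 2 genotype libraries, 223, 219 and 302 FPKM at 0 h and 362, 319 and 307 FPKM at 6 h, and was the gene furthest below in the genotype libraries (log2 difference -6.58). Ccl5 and Cxcl2 were also lower, at 3.13 and 1.5 against 63.5 to 129 FPKM and 6.84 and 9.46 against 48.8 to 60.2 FPKM. Ccl11 (eotaxin) was higher, at 508 and 509.7 against 28.1 to 40.5 FPKM, as were Cxcl14, at 32.6 and 30.2 against 0.343 to 1.37 FPKM, and Cxcl13, which draws B cells, at 25.7 and 25.8 against 0 to 0.839 FPKM. Cxcl1, a relative of Cxcl5, was higher too, at 1081 and 950.0 against 349 to 443 FPKM.

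Inflammatory cytokines and mediators likewise divided, with 15 of 20 past the filter, 6 higher and 9 lower (6 and 5 held). Csf1, the macrophage growth factor, was at 84.1 and 94 FPKM in the 2 genotype libraries, 981, 1069 and 1066 FPKM at 0 h and 1087, 1079 and 1053 FPKM at 6 h, with all 6 TauGABA values far above both genotype values. Il11 was at 2.31 and 2.33 against 51.4 to 68.3 FPKM, Lif at 3.95 and 3.45 against 19.9 to 27.9 FPKM, both of the IL-6 family, and Csf2 at 0.484 and 0.193 against 13.9 to 21.9 FPKM. Il6 was higher in the genotype libraries, opposite to its relatives, at 101 and 92.9 against 18.3 to 24.7 FPKM, as was Il34, another ligand of the CSF1 receptor, at 41.6 and 37.6 against 0.69 to 2.07 FPKM. The 2 ligands of that receptor thus lay on opposite sides. Il33 was at 46 and 47.3 against 7.96 to 12.3 FPKM and Il1b, mainly a myeloid cytokine, at 15.8 and 18.5 against 0 to 1.51 FPKM. The leukocyte markers given above were higher in the same libraries as Il1b and Cxcl13.

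Prostaglandin genes had 11 of 16 members past the filter, with 5 in each direction (5 and 4 held). Ptgs1, the constitutive cyclooxygenase, was higher, at 74.6 and 73.8 against 14.6 to 21.9 FPKM, and so was Hpgd, which breaks prostaglandin E2 down, at 101 and 106 against 4.11 to 9.15 FPKM. The terminal synthase Ptges was lower, at 62.4 and 61.7 against 106 to 117 FPKM. Ptgs2, the inducible cyclooxygenase, was slightly higher, at 72.9 and 74.8 against 49.7 to 61 FPKM. Complement genes had 9 of 12 autosomal members past the filter, 8 higher, all held, and none lower: Serping1, the C1 inhibitor, was at 1717 and 1928 against 66.1 to 80.2 FPKM, C7 at 45.5 and 36.4 against 0.281 to 0.756 FPKM and C1ra at 178 and 188 against 19 to 29.1 FPKM.

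MHC class I presentation had 10 of 11 members past the filter, 8 higher, all held, and 1 lower. The class Ib gene H2-T23 was at 127 and 144 against 8.15 to 15.3 FPKM, the loading factor Tapbp at 211 and 229 against 23.2 to 32 FPKM and the immunoproteasome subunit Psmb8 at 58.5 and 56.2 against 6.34 to 11.3 FPKM. The classical gene H2-K1 and its partner B2m differed little, at 292 and 297 against 227 to 261 FPKM and 1029 and 1032 against 769.6 to 971 FPKM, and H2-D1 overlapped, at 692 and 791 against 649.7 to 733 FPKM. Leukocyte markers, which were higher in the same 2 libraries, move with this list, and their part was not tested. Interferon-stimulated genes had 14 of 21 members past the filter, 2 higher and 8 lower (2 and 4 held). Ifit1, an RNA sensor, was at 6.62 and 4.82 against 37.8 to 65.6 FPKM and Usp18, a negative regulator of the response, at 7.63 and 7.41 against 22.6 to 51.9 FPKM. The list's median of -0.76 was close to that of the reference genes.

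Growth factors showed no common direction, with 19 of 26 past the filter, 9 higher and 9 lower (9 and 5 held). Fgf9, Ntf3 and Gdf10 were higher, at 15.1 and 18.2 against 0.16 to 0.864 FPKM, 16.3 and 9.94 against 0 to 0.272 FPKM and 40.3 and 36.5 against 1.45 to 3.34 FPKM. Angptl4, a lipoprotein lipase inhibitor, was lower, at 12.1 and 7.02 against 229 to 266 FPKM, as was Fgf2, at 5.77 and 2.3 against 21.7 to 29.2 FPKM. All 5 IGF genes past the filter, of 8, were higher and held, and each was a binding protein. Igfbp7 was at 2567 and 2458 against 191 to 236 FPKM, Igfbp5 at 37.7 and 34.6 against 0.179 to 0.562 FPKM and Igfbp3 at 446 and 359 against 50.5 to 68.4 FPKM. Retinoid genes had 11 of 15 members past the filter, 9 higher, all held, and none lower. Aldh1a1, which makes retinoic acid, was at 202 and 175 against 1.86 to 3.45 FPKM, Adh1, an alcohol dehydrogenase acting one step earlier, at 173 and 190.1 against 4.63 to 9.02 FPKM, and Rarres2, which encodes chemerin, at 1046 and 977 against 30.6 to 35.6 FPKM.

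Antioxidant genes under the transcription factor NRF2 were lower in the genotype libraries. Of 21 genes 20 passed the filter, with 19 lower, 15 of them held, and 1 higher, and the median was -2.14. Hmox1, the heme oxygenase, was at 63.4 and 69.7 FPKM in the 2 genotype libraries, 1049, 1070.2 and 1109.9 FPKM at 0 h and 733, 815 and 790.2 FPKM at 6 h. Gclm, the modifier subunit of the glutathione-synthesising ligase, was at 17.6 and 16.9 FPKM in the 2 genotype libraries, 326, 326 and 335 FPKM at 0 h and 274, 281 and 283 FPKM at 6 h. Every TauGABA value of both genes was more than 10 times either genotype value. Nqo1, a quinone reductase, was at 5.92 and 6.5 against 79.6 to 102 FPKM, Gsta4, a glutathione transferase, at 3.73 and 3.61 against 42.7 to 52.8 FPKM and Srxn1 (sulfiredoxin) at 34.3 and 43.6 against 381 to 475 FPKM. Enzymes of the pentose phosphate pathway were among them, with Taldo1 at 90.8 and 99 against 805 to 942 FPKM. The exception was Gstm1, another glutathione transferase, at 881 and 953 against 179 to 189 FPKM. For Hmox1 and Gclm every value at 0 h lay above every value at 6 h.

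Genes of the ATF4 and amino acid response behaved alike. Of 29 genes 24 passed the filter, with 23 lower, 22 of them held, and 1 higher. Asns, asparagine synthetase, was at 7.97 and 13.1 FPKM in the 2 genotype libraries, 235, 202 and 231 FPKM at 0 h and 200.2, 194 and 188 FPKM at 6 h. Psat1, of serine synthesis, was at 7.21 and 12 against 101 to 129.7 FPKM, Mthfd2, of mitochondrial one-carbon metabolism, at 7.68 and 7.66 against 78.2 to 84.3 FPKM, Trib3, a pseudokinase, at 1.08 and 1.29 against 11.5 to 25.6 FPKM and the amino acid transporter Slc7a5 at 6.66 and 8.24 against 62.1 to 70.3 FPKM. Atf4 itself differed little, at 145 and 168 against 193 to 226 FPKM, and its call was not held. The exception was Slc38a2, an amino acid transporter, at 91.8 and 109 against 63.8 to 82.9 FPKM.

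Promoters of these lists are shown because their members lay on one side together. In the 250 bases upstream of the RefSeq start (GRCm38.p6, the first promoter listed per symbol), 4 elements chosen for the comparison and 2 added after the values were seen were searched on both strands. The antioxidant response element TGACNNNGC was in 2 of the 15 promoters matched to the 19 lower NRF2 genes (13.3%), compared with 10.1% of all 27025 promoters and 13.1% of the 5650 matched to genes compared. The AP-1 element TGACTCA, which can overlap it, was in 3 of the 15 (20.0%), compared with 4.43% and 3.12%. The added element TGATGNAA, bound by ATF4 with C/EBP proteins, was in 3 of the 16 promoters matched to the 23 lower ATF4 genes (18.8%), compared with 3.53% and 1.88%. Elements were not limited to the list they are named for: TGACNNNGC was in 5 of the 16 ATF4 promoters (31.2%), a larger share than in the NRF2 promoters, and TGACTCA in 2 of the 16 (12.5%), while TGATGNAA was in none of the 15 NRF2 promoters. The other added element, the E-box CACGTG, was in 2 of the 16 promoters matched to the 21 lower ribosome biogenesis genes (12.5%), 2 of the 16 ATF4 promoters (12.5%) and none of the 15 NRF2 promoters, compared with 6.05% of all promoters and 9.10% of those of genes compared. A match is a description of letters and not a site shown to be bound. For each list the promoters of the members with a match and the largest differences follow, 5′ to 3′ on the gene's strand. Capitals mark the antioxidant response element in Gclm and Prdx1 and the ATF4 element in Asns and Aars. In Prdx1, a peroxiredoxin at 404 and 439 against 1438 to 1647 FPKM, the marked bases also hold an AP-1 element. Aars, alanyl-tRNA synthetase, was at 24.3 and 26.4 against 106 to 120.0 FPKM. Gclm lies on chr3:122245307-122245556 (plus strand), Prdx1 on chr4:116685349-116685598 (plus strand), Asns on chr6:7693210-7693459 (minus strand) and Aars on chr8:111033592-111033841 (plus strand).
Gclm: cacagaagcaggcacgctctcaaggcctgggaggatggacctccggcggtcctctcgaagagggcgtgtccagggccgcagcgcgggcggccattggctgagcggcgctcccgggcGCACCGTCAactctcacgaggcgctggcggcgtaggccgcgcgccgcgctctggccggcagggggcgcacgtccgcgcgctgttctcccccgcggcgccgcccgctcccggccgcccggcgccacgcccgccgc
Prdx1: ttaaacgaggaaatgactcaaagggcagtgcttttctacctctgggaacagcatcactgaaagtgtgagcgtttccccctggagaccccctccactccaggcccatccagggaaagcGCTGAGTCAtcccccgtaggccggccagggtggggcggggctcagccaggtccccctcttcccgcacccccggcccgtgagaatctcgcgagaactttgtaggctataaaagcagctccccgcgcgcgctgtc
Asns: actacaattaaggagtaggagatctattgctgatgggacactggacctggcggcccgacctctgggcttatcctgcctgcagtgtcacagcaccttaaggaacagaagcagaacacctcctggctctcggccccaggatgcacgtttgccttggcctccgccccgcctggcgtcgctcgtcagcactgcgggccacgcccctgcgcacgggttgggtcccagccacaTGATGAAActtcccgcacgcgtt
Aars: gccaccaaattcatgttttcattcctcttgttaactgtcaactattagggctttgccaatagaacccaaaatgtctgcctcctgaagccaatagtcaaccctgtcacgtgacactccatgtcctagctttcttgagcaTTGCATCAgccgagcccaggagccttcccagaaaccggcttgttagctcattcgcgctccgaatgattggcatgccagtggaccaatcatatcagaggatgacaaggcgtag

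Ribosome biogenesis genes and MYC targets were lower in the genotype libraries without exception. All 21 genes passed the filter, were lower and held, with a median of -2.94 and a range of -3.64 to -1.94. Ncl (nucleolin) was at 30.9 and 33.9 against 198 to 226 FPKM. Nop2, an rRNA methyltransferase, was at 13.2 and 9.97 FPKM in the 2 genotype libraries, 161, 148 and 168 FPKM at 0 h and 159.7, 153 and 149 FPKM at 6 h. The lowest TauGABA value of Nop2 was above both genotype values by about an order of magnitude. Rrp9 and Rrs1, assembly factors of the nucleolus, were at 12.1 and 17.6 against 179 to 210.1 FPKM and 8.53 and 10.3 against 118 to 125 FPKM, and Srm, spermidine synthase, at 45.5 and 49.2 against 491 to 562 FPKM. Ribosomal proteins were lower as well, 22 of 22, with 20 held. Their median of -1.18 was nearer to the reference genes than that of the biogenesis factors. Rps2 was at 615 and 586 against 2359 to 2699 FPKM and Rpl18 at 257 and 242 against 913 to 1079 FPKM. Ribosomal protein genes have many processed copies in the genome, so reads may be shared with them.

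Replication genes were lower in the genotype libraries. Mitosis genes were low in both sets, and more of them were higher than lower in the genotype libraries. Of 24 replication genes 16 passed the filter, with 13 lower and 2 higher, all held. Mcm2, Mcm3, Mcm5, Mcm6 and Rrm2 passed only through the TauGABA set, and Tyms and Ccnd1 only through the genotype set. For these genes the direction was nearly fixed by the filter. With no filter 16 of the 24 were lower and 3 higher. Mcm6, a subunit of the replicative helicase, was at 4.27 and 10.4 FPKM in the 2 genotype libraries, 57.1, 57.4 and 61.5 FPKM at 0 h and 55.3, 60.7 and 54.9 FPKM at 6 h. Rrm2, which makes deoxyribonucleotides, was at 4.53 and 4.58 against 34.6 to 48.6 FPKM, Mcm3 at 5.78 and 6.68 against 45.3 to 51.5 FPKM, Mcm2 at 4.39 and 5.71 against 35.2 to 41.7 FPKM and Mcm5 at 2.9 and 2.91 against 21.7 to 27.3 FPKM. The 2 in the other direction were Tyms, thymidylate synthase, at 104 and 81 against 6.56 to 7.18 FPKM, and Ccnd1, the G1 cyclin, at 14.9 and 14 against 2.03 to 4.07 FPKM. Pcna overlapped. None of the 22 mitosis genes passed the filter. With no filter 9 of the 22 were higher in the genotype libraries and 1 lower, but low genes lay mostly on the higher side. Mki67 was at 1.97 and 1.25 against 0.0459 to 0.237 FPKM and Ccnb1 (cyclin B1) at 9.42 and 6.54 against 0.476 to 2.12 FPKM. The lower gene was Ccna2 (cyclin A2), at 1.52 and 2.86 against 3.82 to 6.05 FPKM. Of 7 CDK inhibitors 4 passed, and of these only Cdkn1a passed in both sets. Cdkn1c, Cdkn2c and Cdkn2d passed only through the genotype set, where they are high, so their direction was nearly fixed by the filter. Cdkn1a, which encodes p21, was lower, at 82.1 and 101 FPKM in the 2 genotype libraries, 387, 382 and 318 FPKM at 0 h and 312, 345 and 329 FPKM at 6 h, and Cdkn1c (p57), Cdkn2c and Cdkn2d were higher, at 20.9 and 19.8 against 0.852 to 2.04 FPKM, 21.3 and 23.3 against 1.35 to 3.25 FPKM and 20.8 and 17.8 against 2.07 to 3.97 FPKM.

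The CCAAT box, letters CCAAT on either strand, was in 9 of the 12 promoters matched to the 13 lower replication genes (75.0%), compared with 34.5% of all promoters and 36.1% of those of genes compared. In the mitosis list, where no gene was compared, it was in 16 of 18 (88.9%), and the cell cycle homology element TTTGAA was in 7 of 18 (38.9%), compared with 16.3% of all promoters. Replication genes held TTTGAA in 2 of 12 (16.7%). The promoters of the 2 lower replication genes with a CCAAT box and the largest differences follow in the same form, with the CCAAT letters of either strand in capitals. Rrm2 lies on chr12:24708004-24708253 (plus strand) and Mcm6 on chr1:128359706-128359955 (minus strand).
Rrm2: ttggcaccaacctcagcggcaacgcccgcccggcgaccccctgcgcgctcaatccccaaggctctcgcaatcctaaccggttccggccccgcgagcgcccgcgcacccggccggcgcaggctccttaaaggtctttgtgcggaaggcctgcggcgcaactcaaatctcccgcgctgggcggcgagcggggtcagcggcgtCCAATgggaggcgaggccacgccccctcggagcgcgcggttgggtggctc
Mcm6: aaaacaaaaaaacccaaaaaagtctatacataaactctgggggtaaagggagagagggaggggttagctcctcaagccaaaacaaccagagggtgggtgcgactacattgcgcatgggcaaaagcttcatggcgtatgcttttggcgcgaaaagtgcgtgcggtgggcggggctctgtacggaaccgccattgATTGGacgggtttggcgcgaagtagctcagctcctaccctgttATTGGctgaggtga

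Energy metabolism genes were lower as deposited, but only some by more than the shift of the reference genes. Of 21 glycolysis and hypoxia genes 16 passed the filter, 12 lower and 3 higher (9 and 3 held), with a median of -1.12. Eno1 (enolase) was at 143 and 145 against 902 to 1098 FPKM, Ldha (lactate dehydrogenase) at 347 and 441 against 1748 to 1886 FPKM and the glucose transporter Slc2a1 at 11.2 and 15.3 against 61.1 to 67.6 FPKM. Bnip3 and P4ha2, both hypoxia-inducible, were higher, at 48.9 and 38.6 against 22.4 to 26 FPKM and 35 and 45.7 against 18.9 to 23.1 FPKM. Oxidative phosphorylation subunits were lower in 21 of 23 with 12 held, and their median of -0.82 became -0.16 after scaling on the reference genes. Cyc1 (cytochrome c1) was at 81 and 96.1 against 226 to 256 FPKM and Cox5a at 99.9 and 115 against 276 to 329 FPKM.

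Cholesterol synthesis and lysosomal genes were higher in the genotype libraries. Of 20 cholesterol genes 16 passed, with 12 higher and 1 lower, all held. Insig1, a sterol sensor, was at 69.1 and 72.1 against 6.83 to 11.8 FPKM, Fdft1 (squalene synthase) at 27.5 and 31.1 against 4.74 to 6.06 FPKM and Hmgcs1 at 35 and 53.9 against 13.3 to 17.8 FPKM. Of 17 lysosomal genes 16 passed, with 13 higher, all held, and 2 lower, 1 of them held. Grn (progranulin) was at 238 and 228 against 39.3 to 47.1 FPKM and Psap (prosaposin) at 483 and 474 against 77.9 to 112 FPKM, while Gpnmb was lower, at 9.997 and 9.87 against 25.7 to 33.5 FPKM.

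Stress proteins of other compartments went in both directions. Of 11 heat shock genes 4 were higher and 5 lower (4 and 3 held). The mitochondrial chaperonins Hspd1 and Hspe1 were lower, at 55.1 and 62.4 against 408 to 454 FPKM and 103 and 85.6 against 334 to 389 FPKM, and the cytosolic cochaperone Dnajb1 was higher, at 277 and 337 against 79.7 to 100.4 FPKM. Hspa8 was lower as deposited, at 1729.7 and 1888 against 2159 to 2503 FPKM, and turned to higher after median-ratio and reference-gene scaling. Of 16 genes of endoplasmic reticulum stress and folding, 8 were higher, all held, and 2 lower, 1 of them held, with a median of 0.18. Dnajb9 was at 87.4 and 90.2 against 34 to 41.9 FPKM and the chaperone Hspa5 (BiP) at 728 and 864 against 576 to 625 FPKM.

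Actin cytoskeleton and adhesion genes had a median of -0.73, close to that of the reference genes, and of -0.10 after scaling on them. Of 31 genes 25 were lower and 4 higher (14 and 3 held). Itga5, the fibronectin receptor subunit, was at 41.3 and 61.6 against 332 to 382 FPKM and Pfn1 (profilin) at 434 and 513 against 2045 to 2396 FPKM. Csrp1 and Tmsb10 were higher, at 455 and 433 against 110.4 to 136 FPKM and 435 and 368 against 150.2 to 195 FPKM. YAP pathway and target genes had 11 of 17 members past the filter, with 7 lower and 3 higher (5 and 3 held). Ctgf was lower, at 352 and 372 against 1404 to 1663 FPKM, as was Nuak2, at 5.88 and 5.51 against 45 to 61.1 FPKM, and Cyr61, a further target, was at 1236 and 1605 against 1756 to 1975 FPKM, lower and not held. Amotl1 was higher, at 32.7 and 32.2 against 5.83 to 8.06 FPKM.

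Smooth muscle and myofibroblast genes split by member. Of 12 genes 8 passed the filter, 3 higher, all held, and 5 lower, 3 of them held. Myh11 and Mylk, of the contractile apparatus, were higher, at 15.8 and 14.9 against 0.291 to 1.18 FPKM and 31 and 30.1 against 1.08 to 1.53 FPKM, as was Myl9, at 534 and 542 against 124 to 140.4 FPKM. Acta2, the smooth muscle actin of myofibroblasts, was lower as deposited, at 305 and 382 against 489 to 549.8 FPKM, and its log2 difference of -0.60 became 0.05 after scaling on the reference genes. Actg2 was lower, at 15.8 and 10.2 against 35.5 to 47.4 FPKM, and held.

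Genes that handle taurine and GABA had 5 of 15 autosomal members past the filter, 3 higher, all held, and 1 lower, not held. Slc6a6, the taurine transporter, overlapped, at 20.0 and 20.4 FPKM in the 2 genotype libraries, 20.3, 25 and 23.1 FPKM at 0 h and 21.3, 18.6 and 20.9 FPKM at 6 h. Csad, which makes the taurine precursor hypotaurine, was higher in the genotype libraries, at 16 and 24.1 against 2.76 to 4.04 FPKM. Abat, the GABA transaminase, was at 12 and 12.4 against 6.09 to 7.8 FPKM and Aldh9a1, an aldehyde dehydrogenase, at 20.6 and 21.2 against 6.61 to 11.4 FPKM. Ado, a thiol dioxygenase, was lower as deposited, at 14.7 and 19.3 against 21.1 to 24.5 FPKM, and turned to higher after median-ratio and reference-gene scaling.

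**Figure D5:**
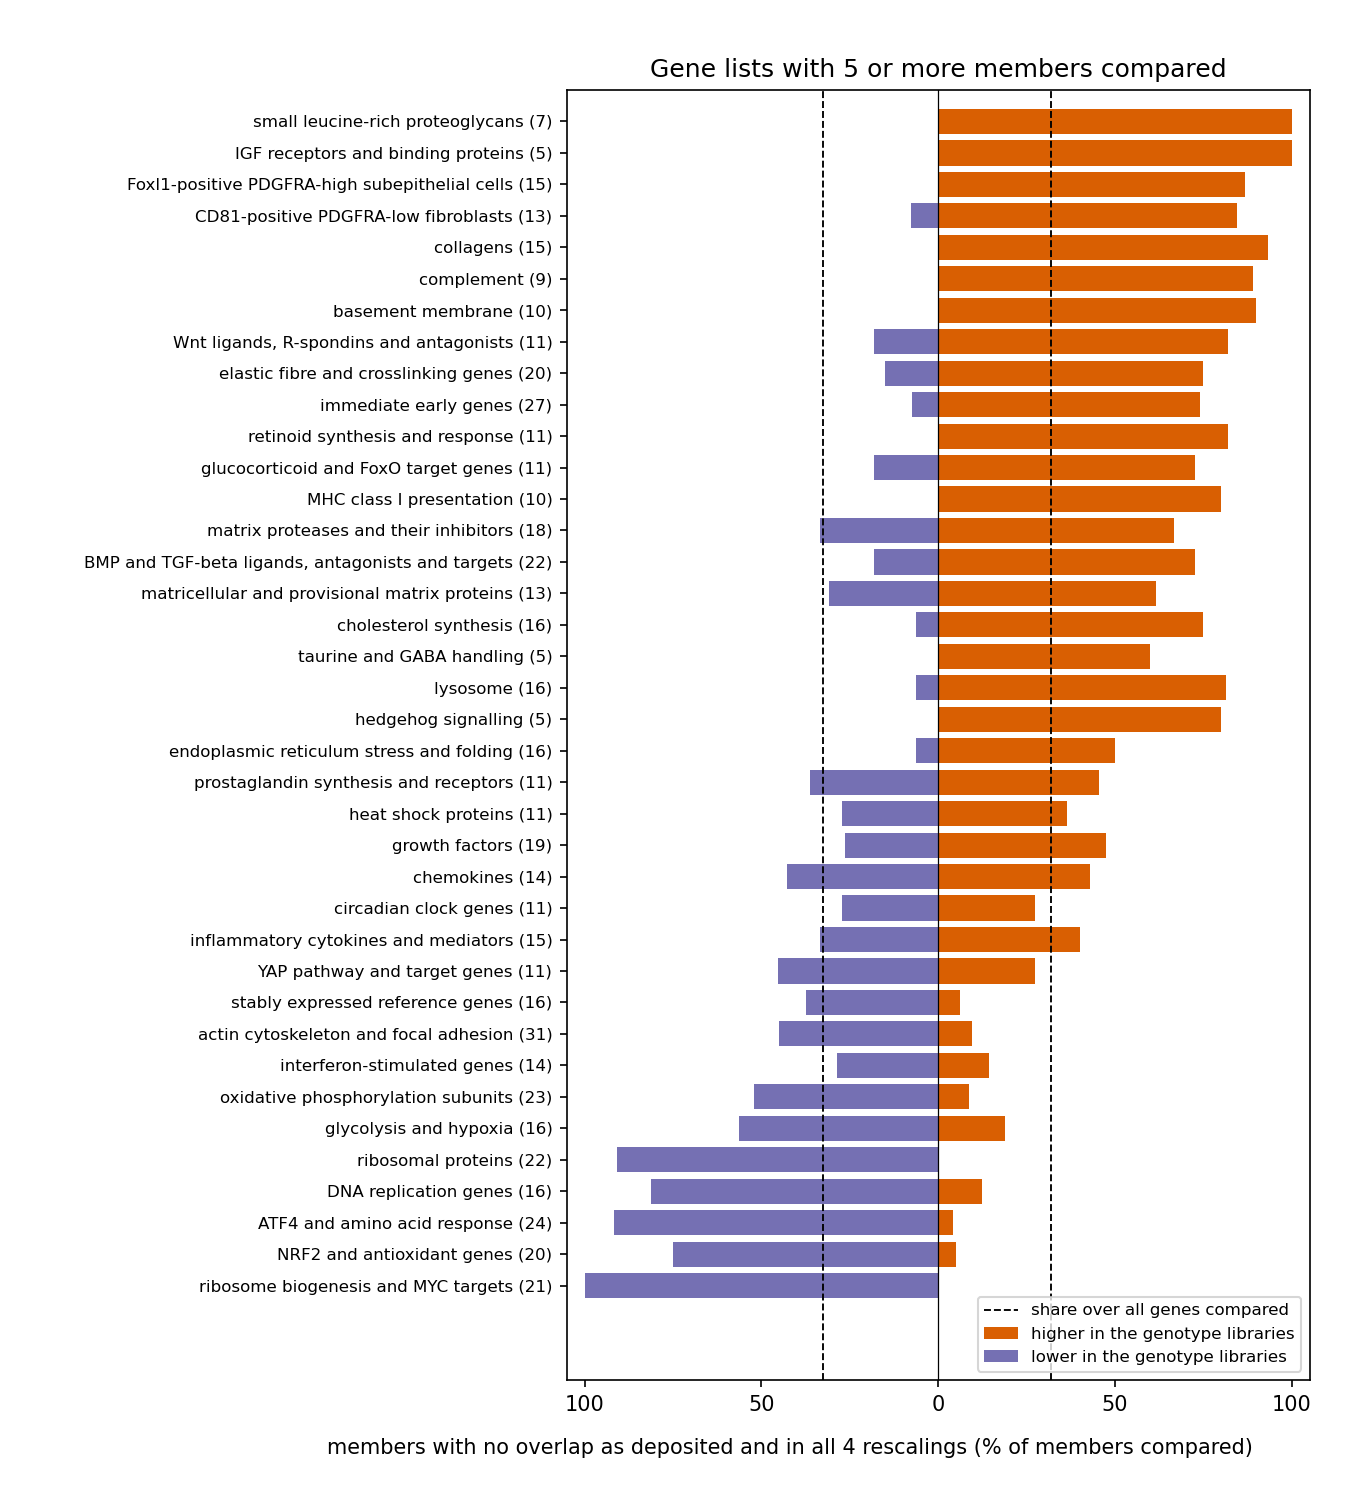
Share of compared members of each gene list other than the cell type markers, for lists with 5 or more members compared (number in brackets), that were higher (right) or lower (left) in the genotype libraries as deposited and in all 4 rescalings. Dashed lines give the shares over all genes compared, 31.8% and 32.6%. Of the lists drawn, proteoglycans, IGF binding proteins, collagens and basement membrane genes extend furthest to the right, and ribosome biogenesis, ATF4, ribosomal protein and replication genes furthest to the left.

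Single genes at the ends of the comparison included several outside these lists. Mrgpra6, a G protein-coupled receptor (GRCm38 chromosome 7, 47185707 to 47204920), was at 1909 and 1535 FPKM in the 2 genotype libraries, 1.49, 1.69 and 1.61 FPKM at 0 h and 1.88, 2.07 and 1.91 FPKM at 6 h, the largest log2 difference among the genes compared other than unnamed models and small RNAs (9.28). Zfp488, a zinc finger gene, was at 627 and 502 against 0.329 to 0.602 FPKM, Olfr613, an olfactory receptor gene, at 158 and 129 against 0.051 to 0.127 FPKM and Adamdec1, a metalloprotease of gut fibroblasts and macrophages, at 1605 and 1637 against 2.19 to 5.19 FPKM. Receptor genes of these families have close relatives in the genome, and reads from overlapping transcripts were not told apart. Ces1d, a carboxylesterase with near relatives beside it, was at 976 and 1709.7 against 10.3 to 14.9 FPKM, Pdlim3 at 326 and 362 against 0.386 to 1.66 FPKM, Sept4, a septin, at 275 and 249 against 0.196 to 1.64 FPKM and Emid1 at 156 and 145 against 0.13 to 0.424 FPKM. All 8 library values of each gene kept the sets apart by more than an order of magnitude.

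At the other end, Egr4, an early growth response factor, was at 0.105 and 0.0838 FPKM in the 2 genotype libraries, 112, 89.3 and 82.7 FPKM at 0 h and 82.2, 78.7 and 101 FPKM at 6 h. It lay opposite to Egr1, which was at 1872 and 2215 against 686 to 890.0 FPKM and higher in the genotype libraries. Il1rl1, which encodes the IL-33 receptor ST2, was at 2.07 and 2.58 FPKM in the 2 genotype libraries, 210.5, 219.8 and 233 FPKM at 0 h and 271, 264 and 257 FPKM at 6 h. Its ligand Il33 was higher in the genotype libraries, as given above. Asb5 was at 2.32 and 2.78 against 137 to 167 FPKM, Steap1, a metalloreductase, at 0.988 and 2.05 against 66.1 to 73.3 FPKM and Esm1, a proteoglycan also made by endothelium, at 1.78 and 0.669 against 57.7 to 67.9 FPKM. H2-Q8 has near-identical neighbours: the sum of H2-Q6, H2-Q7, H2-Q8 and H2-Q9 was 12.7 and 11.5 FPKM against 139 to 167 FPKM.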

How the data were processed

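RNA of sorted cells from mouse large intestine was made into full-length cDNA with a SMART-Seq HT kit and into NexteraXT libraries, per the labels. The authors deposited 1 FPKM value per gene symbol and library. The submitters' processing notes name Cuffdiff 2.2.1, SAMtools 0.1.18, TopHat2 2.1.1, Bowtie2 2.2.8 and the build mm10. Annotation, strand setting, scaling and joint or separate runs of the sets: not given in the sources used here. Read depth is unknown.

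Symbols were placed on GRCm38 by GENCODE M21 name (23312), RefSeq symbol (263) or RefSeq synonym (679). The 92 unplaced symbols and the 1097 on the X or Y chromosome were left out, as were 9 on scaffolds. Autosomal genes whose mean reached 10 FPKM in either set were compared, and called only where both genotype libraries lay outside the range of the 6 TauGABA libraries. Differences are of log2(mean FPKM + 1), with the pseudocount of 1 understating the change of low genes. No test was made, since the 2 genotype libraries are of different genotypes and set is confounded with everything the sets do not share. Rescalings were to an equal total, by the median ratio over 4581 genes at 10 FPKM or more in all 8 libraries, by the reference genes, and by rank. The calling step was tested on simulated data with planted differences.

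Named were the gate genes, Foxl1, Cxcl12, Cxcr4 and Ackr3. Also named were genes from the 12 largest differences in each direction (passing over unnamed models, pseudogenes and small RNAs), up to 5 called members of each of 52 lists in each direction, and the 3 most abundant of each cell type list. Further list members (those that overlapped, lay below the filter, completed a family or had a promoter shown) were named after their values were seen. Some genes that the rule names are not reported here. The members and lists were chosen with earlier results of these data known. The analysis used Python 3.11.15, pandas 2.3.3 and numpy 2.4.6.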

Additional observations from a re-analysis of the deposited data

How the results depend on the processing

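The number of genes higher in the genotype libraries was 2372 as deposited, 3732 after median-ratio scaling and 4372 after scaling on the reference genes. The number lower was 3997 as deposited and 2356 after scaling on the reference genes. The limit of 10 was applied anew after each of these rescalings, so the counts do not cover the same genes. With at least 2-fold, 1409 genes were higher as deposited, 2137 after equal-total scaling, 2192 after median-ratio scaling and 2587 after reference-gene scaling, and 2064 were lower as deposited, 1153 after median-ratio and 920 after reference-gene scaling. With a limit of 1 FPKM in either set, 7332 genes were higher, 5086 of them by 2-fold, and with no filter 11050 and 5086, so the low genes lay mostly on that side. With at least 10 FPKM in both sets, which removes genes near absent from 1 set, 1189 were higher (483 by 2-fold), and 1297 were lower by 2-fold. The reference-gene median of −0.69 became −0.22 and −0.05 after median-ratio and reference-gene scaling. Counts stayed within 1.5 times of those deposited by rank, with pseudocount 0.1, with the 0 h or 6 h libraries alone, and without cell type markers (9 types other than fibroblasts were left out together after the data were seen). Leaving out markers removes only the listed genes, so it could change the counts little and does not measure the part of other cell types. Leaving out 1 library gave 2387 to 2637 genes higher and 4012 to 4294 lower.

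Some directions turned. After median-ratio scaling Hoxa11 was at 0.14, Klf6 at 0.17, Hspa8 at 0.13, Cd63 at 0.01 and Ado at 0.07. After reference-gene scaling Hoxa11 was at 0.31, Klf6 at 0.35, Arntl at 0.11, Acta2 at 0.05, Tagln at 0.11, Has2 at 0.01, Ptgis at 0.02, Hspb1 at 0.08, Hspa8 at 0.31, Canx at 0.16, Cd63 at 0.19 and Ado at 0.24. After reference-gene scaling the medians of 6 lists turned: circadian genes from −0.45 to 0.20, cytokines from −0.46 to 0.18, chemokines from −0.13 to 0.53, growth factors from −0.11 to 0.53, heat shock genes from −0.06 to 0.59 and smooth muscle from −0.57 to 0.08. After median-ratio scaling those of circadian genes, cytokines, chemokines, growth factors and heat shock genes had turned, to 0.02, 0.01, 0.35, 0.36 and 0.41, and after equal-total scaling that of heat shock genes, to 0.04. The smooth muscle median also turned to 0.67 with at least 1 FPKM and to 0.60 with no filter. With 10 FPKM in both sets, the medians of the CDK inhibitors and of taurine and GABA handling turned to −1.90 and −0.24, with fewer genes. No paired analysis was possible because nothing in the labels ties a replicate number of one set to the same number of the other, and no test was made between them. The number of reads is not given, so counting error could not be computed.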

Other observations

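Genes of the X chromosome, left out of the comparison, held several matrix and stress genes, which lay on both sides. Of 207 X-linked genes past the same filter, 82 (39.6%) were higher in the genotype libraries and 93 (44.9%) lower. Bgn (biglycan), a small leucine-rich proteoglycan, was at 1168 and 1247 against 404 to 421 FPKM, and Srpx2, a secreted sushi-repeat protein, at 122 and 145 against 11.2 to 14.9 FPKM. Timp1, an inhibitor of matrix proteases, was at 32.6 and 35.9 FPKM in the 2 genotype libraries, 1179, 1071 and 1090.1 FPKM at 0 h and 1155, 1119 and 1089 FPKM at 6 h, opposite to the autosomal Timp2 and Timp3. Tsc22d3, a glucocorticoid-induced gene, was at 180.2 and 233 against 25 to 31.3 FPKM. G6pdx, the first enzyme of the pentose phosphate pathway, was at 14.7 and 20.5 against 60.7 to 72.2 FPKM, on the side of Taldo1. Hprt, often used as a reference gene, was at 33.5 and 49.2 against 186 to 203 FPKM. Sex-linked transcripts differ between the sets, so the X-linked values are given for description only.

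Of the genes compared, 51 were listed at 0 in all 6 TauGABA libraries, and 46 of these were unnamed models, pseudogenes or small RNAs. In both genotype libraries 7 were listed at 0, all of these kinds. At 1 FPKM or more, 15336 and 14497 genes were listed in the genotype libraries and 10821 to 10898 in the TauGABA libraries, while at 10 FPKM or more the numbers were 6287 and 6472 against 6262 to 6342.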
